A study of Mus musculus with 2 samples.

Results

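The mouse MHC class II genes were followed across the leukocytes of the brain: Cd74, H2-Aa, H2-Ab1, H2-Eb1, H2-DMa, H2-DMb1, H2-DMb2, H2-Oa, H2-Ob and Ciita. These 10 genes, chosen by name, were all present among the 27998 genes of the count tables, and all 10 had counts in both libraries. CD45+ cells (leukocytes) had been sorted from the brains of untreated C57Bl/6 mice at postnatal day 21, from twi mice (galc-/-), which lack the lysosomal enzyme galactosylceramidase and are a model of globoid cell leukodystrophy, and from WT littermates (galc+/+). The cells of several animals of a genotype were pooled before 1 droplet library was made for each, so animals cannot be told apart, no replicate error exists and no test was made. Each molecule read from the 3′ end of a transcript carried a unique molecular identifier (UMI), and a level is given in CPM, the usual scale on which the UMIs of each class and library are brought to the same total. All intervals are exact 95% intervals that cover counting error only, and neither the spread between cells nor that between animals is in them.

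MHC class II molecules present peptides from the endosomes to CD4+ T cells and are made mainly by B cells, dendritic cells and other antigen-presenting myeloid cells. The α and β chains (H2-Aa with H2-Ab1, and H2-Eb1) are assembled on the invariant chain, encoded by Cd74, whose remnant CLIP is then exchanged for peptide by H2-DM (H2-DMa with H2-DMb1 or H2-DMb2), while H2-O (H2-Oa with H2-Ob) restrains H2-DM. The coactivator Ciita governs transcription of the group through factors bound at a conserved set of promoter boxes. In mice of the C57Bl/6 background the partner α chain of H2-Eb1 is not made, so that an H2-Eb1 transcript does not stand for a surface molecule.

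On the GRCm38 build Ciita lies at chr16:10480059-10528418 (+). All of the other members except Cd74 lie close together on chromosome 17, with H2-Oa at chr17:34092340-34095234 (+), H2-DMa at chr17:34119541-34139101 (+), H2-DMb2 at chr17:34143307-34151555 (+), H2-DMb1 at chr17:34153072-34160230 (+), H2-Ob at chr17:34238903-34254414 (+), H2-Ab1 at chr17:34257689-34269419 (+), H2-Aa at chr17:34282744-34287823 (-) and H2-Eb1 at chr17:34305867-34316674 (+). Promoter stretches from RefSeq (GRCm38.p6) are shown for the 6 members whose promoter held TGATTGG, aligned on it, so that its presence in all 6 follows from the choice. H2-DMa had promoters without it, and H2-Ab1, Cd74 and Ciita were not searched. Each line gives 90 bases, 5′ to 3′ on the strand of the gene, before the RefSeq start of transcription (some of the GENCODE gene spans above begin further upstream). Capitals mark every match to CCAAT or TGACG, or to TGATTGG, on either strand. TGATTGG was added after the sequences had been seen, and its last 5 bases are CCAAT read on the other strand.
H2-Aa: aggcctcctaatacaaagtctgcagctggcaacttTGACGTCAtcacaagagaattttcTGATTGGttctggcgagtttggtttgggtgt
H2-Eb1: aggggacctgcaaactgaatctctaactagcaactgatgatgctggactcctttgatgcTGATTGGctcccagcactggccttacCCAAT
H2-DMb1: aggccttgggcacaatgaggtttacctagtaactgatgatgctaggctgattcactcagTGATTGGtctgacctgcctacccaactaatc
H2-DMb2: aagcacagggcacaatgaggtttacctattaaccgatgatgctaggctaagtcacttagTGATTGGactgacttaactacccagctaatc
H2-Oa: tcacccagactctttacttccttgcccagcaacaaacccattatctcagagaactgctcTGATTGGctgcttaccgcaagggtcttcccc
H2-Ob: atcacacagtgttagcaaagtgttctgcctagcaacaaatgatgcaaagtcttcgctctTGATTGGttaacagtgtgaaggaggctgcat

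The stretches are chr17:34287843-34287932 (-) for H2-Aa, chr17:34305747-34305836 (+) for H2-Eb1, chr17:34153069-34153158 (+) for H2-DMb1, chr17:34145098-34145187 (+) for H2-DMb2, chr17:34092275-34092364 (+) for H2-Oa and chr17:34238787-34238876 (+) for H2-Ob. The box TGATTGG began between 45 and 92 bases before the start, at 50 bases in H2-Aa and 45 in H2-Oa, 59 in H2-Ob, 61 in H2-Eb1, 63 in H2-DMb1 and 92 in H2-DMb2. Over 32851 promoters of the same table, each from 250 bases before to 50 bases after a start, 7.82% held that box on either strand. The shorter CCAAT was held by 37.4% of promoters. The third motif, TGACG, was held by 20.8%, and of the 7 members with a promoter in the table by H2-Aa, where its matches on both strands overlap. The 2 promoters given for H2-DMa held neither the 7-base box nor the third motif. These matches describe letters in a window and do not show that a factor binds there.

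Cells were placed in classes by fixed lists of 8 marker genes that include no class II gene, and are called mature B-like, T-like and so on. After barcodes with more than 15% mitochondrial UMIs were left out (7 in WT and 13 in twi), 1271 WT cells with 3741477 UMIs (median 2222 per cell) and 1207 twi cells with 4791200 UMIs (median 3182) remained, and no barcode was shared between the libraries. Mature B-like cells made up 252 WT and 107 twi cells, immature B-like cells 235 and 44, monocyte-like cells 38 and 64, microglia-like cells 29 and 17, and T-like cells 260 and 738. Dendritic-like cells were few, with 1 of the plasmacytoid class in WT and 3 conventional and 2 plasmacytoid in twi. Galc itself had 4 UMIs in WT and 8 in twi, and because counts taken at the 3′ end say nothing of the mutation, they are no check of the labels. Xist was seen in 0 WT cells and in 47.6% of twi cells, so genotype, sex makeup and library preparation cannot be told apart.

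Class II transcripts were carried mostly by mature B-like cells in both libraries. Of the 22136 UMIs of the 10 genes in WT, 76.6% (95% interval 76.0 to 77.1%) lay in mature B-like cells, which were 19.8% of the cells. In twi, 73.7% (72.9 to 74.5%) of 11657 UMIs lay in mature B-like cells, which were 8.86% of the cells. All B lineage-like cells together held 94.9% of the class II UMIs in WT and 82.3% in twi. Outside the B lineage, twi monocyte-like, microglia-like and dendritic-like cells held 3.53%, 3.95%, 4.76% (conventional) and 1.57% (plasmacytoid). In WT, monocyte-like, microglia-like and plasmacytoid dendritic-like cells held 2.47%, 0.248% and 0.108%, and no cell was conventional dendritic-like. A bulk level over all cells cannot tell fewer cells of a class from less RNA per cell, so levels are given within classes below.

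**Figure D1:**
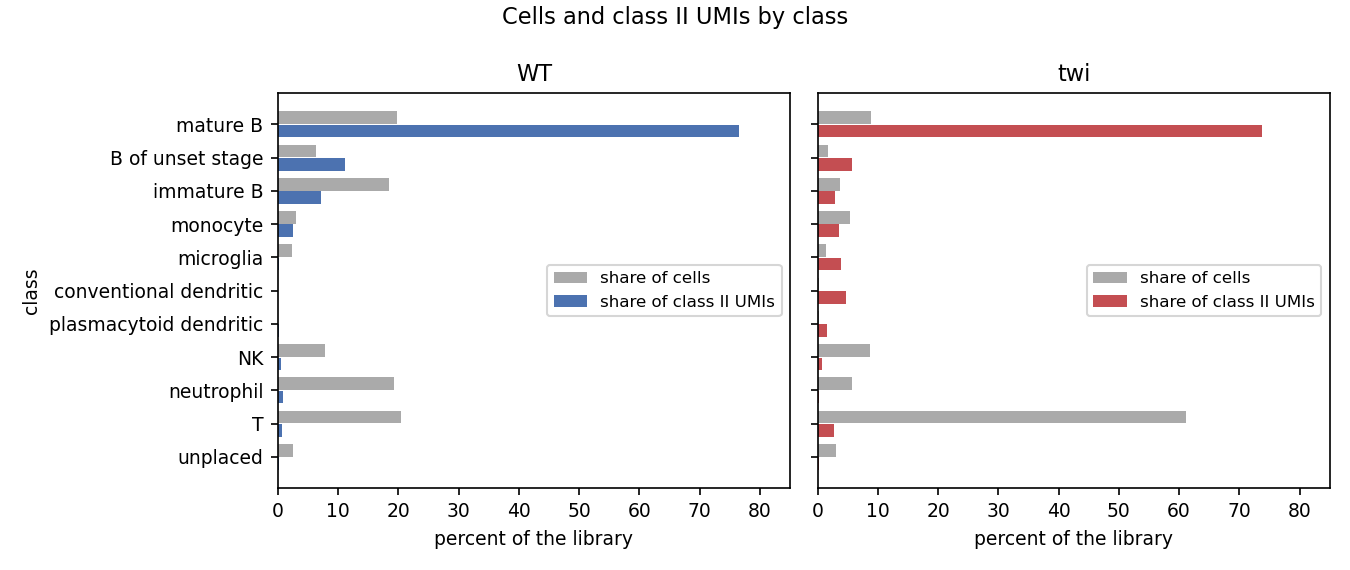
Share of the cells (grey) and share of the UMIs of the 10 class II genes (coloured) held by each class, in percent of the WT (left) or twi (right) library. Mature B-like cells were 19.8% of WT and 8.86% of twi cells, and held 76.6% and 73.7% of the class II UMIs.

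Over all cells the 10 genes summed to 5916 CPM in WT and 2433 CPM in twi, a ratio of 0.411 (0.402 to 0.421). Makeup was taken as the share of each class in all UMIs, not in all cells, so it includes differences in UMIs per cell. Had every class kept its WT level while the makeup was that of twi, the sum would have been 2278 CPM, a ratio of 0.385. That value lies just under the observed interval, and it counts 0 for conventional dendritic-like cells, which had no WT level and held 555 UMIs of the 10 genes in twi. Counted as cells rather than UMIs, the B lineage-like classes were 14.3% of the library in twi and 44.6% in WT. Per gene, the ratio observed over all cells was 0.387 for Cd74 (makeup alone 0.370), 0.490 for H2-Aa (0.395), 0.471 for H2-Ab1 (0.393) and 0.428 for H2-Eb1 (0.393). Among the accessory genes, H2-DMa was at 0.661 (makeup alone 0.675), H2-DMb1 at 0.548 (0.548) and H2-Oa at 0.595 (0.660), while H2-DMb2 was at 0.341 (0.370) and H2-Ob at 0.344 (0.434). Ciita had 29 UMIs in each library, and its ratio of 0.781 (0.450 to 1.35) was set by few counts.

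**Figure D2:**
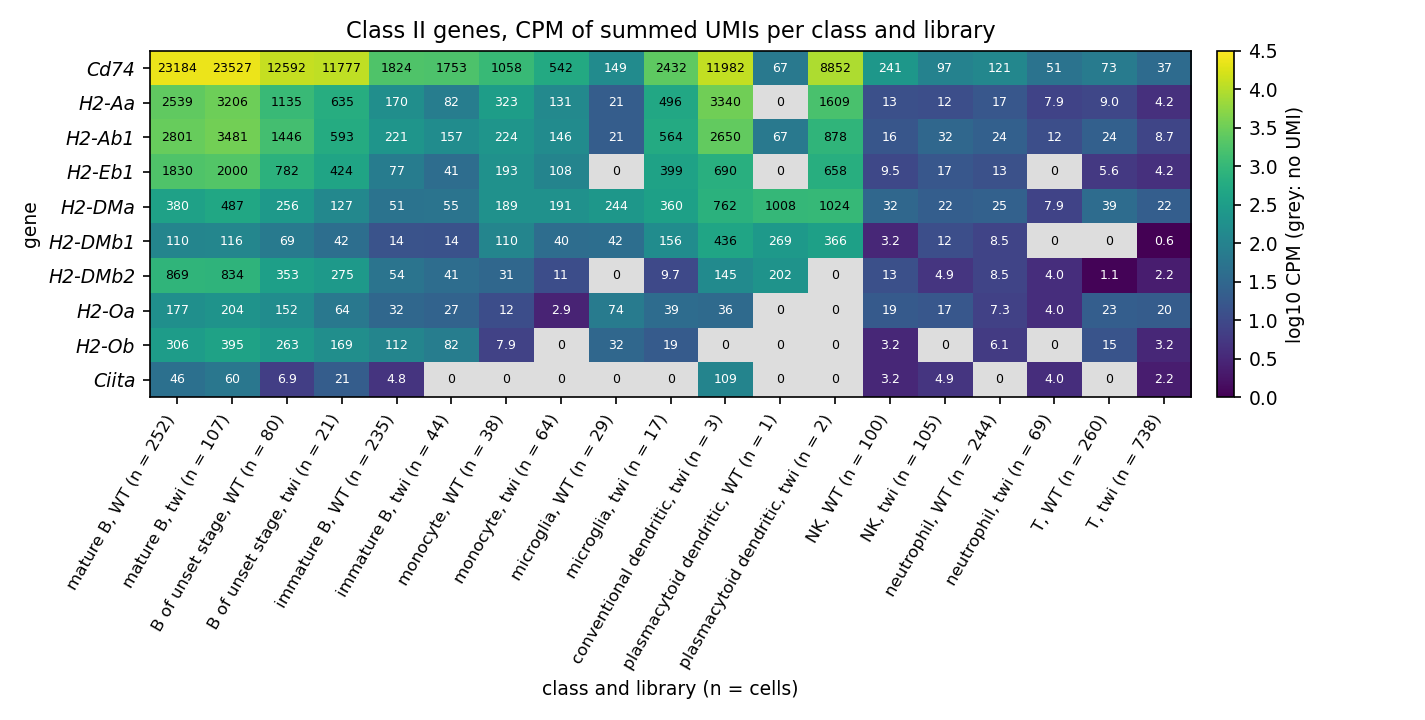
CPM of each class II gene (rows) in each class and library (columns, with the number of cells), coloured by log10 CPM. Grey cells had no UMI. Cd74, H2-Aa, H2-Ab1 and H2-Eb1 were highest in mature B-like cells of both libraries among classes of at least 17 cells.

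By class, the summed level of the 10 genes in WT was highest in mature B-like cells at 32243 CPM, followed by B lineage-like cells of unset stage at 17054 CPM, immature B-like at 2561 CPM and monocyte-like cells at 2148 CPM. Microglia-like cells were at 584 CPM, NK-like cells at 352 CPM, neutrophil-like cells at 232 CPM and T-like cells at 189 CPM. The counting intervals of neutrophil-like (199.8 to 267 CPM) and T-like cells (162 to 220.2 CPM) overlapped, and those of the other neighbours among these 8 classes did not. In twi the order was mature B-like (34310 CPM), conventional dendritic-like (20151 CPM, 3 cells), B lineage-like of unset stage (14128 CPM), plasmacytoid dendritic-like (13387 CPM, 2 cells), microglia-like (4474 CPM), immature B-like (2251 CPM), monocyte-like (1173 CPM), NK-like (218 CPM), T-like (104 CPM) and neutrophil-like (90.9 CPM). There the intervals of the unset and plasmacytoid classes overlapped, as did those of T-like and neutrophil-like cells. The levels of monocyte-like cells in both libraries, and of microglia-like and dendritic-like cells in twi, rest largely on few cells, described later. In WT, 1 neutrophil-like cell that also had 5 B lineage markers held 25 of the 100 Cd74 UMIs of its class. It held 19 of the 45 UMIs of H2-Aa, H2-Ab1 and H2-Eb1 there, and the level without it is not given. The 1 plasmacytoid dendritic-like cell of WT, at 1613 CPM, was left out of the WT order.

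Cd74, the invariant chain, gave most of the class II UMIs. In mature B-like cells it stood at 23184.5 CPM in WT (12191 UMIs) and 23527 CPM in twi (5893 UMIs), a ratio of 1.01 (0.984 to 1.05). The median mature B-like cell had 47 Cd74 UMIs in WT (0 to 128) and 57 in twi (0 to 138), and the 2 ranges overlapped almost wholly. At least 20 Cd74 UMIs were seen in 84.5% (79.5 to 88.8%) of WT and 85.05% (76.9 to 91.2%) of twi mature B-like cells. The twi library was the deeper of the pair, and per cell without scaling the 10 genes were 1.19-fold (1.16 to 1.23) higher in twi, against 1.06-fold (1.04 to 1.09) in CPM.

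The chains that form the peptide-binding molecule were higher in twi than in WT mature B-like cells taken as a class, by less than the 1.5-fold limit used for all genes. H2-Aa, the α chain, was at 2539 CPM in WT and 3206 CPM in twi, a ratio of 1.26 (1.16 to 1.38), and its partner β chain H2-Ab1 was at 2801 and 3481 CPM, a ratio of 1.24 (1.14 to 1.35). H2-Eb1, a β chain without its partner in this strain, was at 1830 and 2000.2 CPM, a ratio of 1.09 (0.979 to 1.22). For the 3 chains summed the ratio was 1.21 (1.15 to 1.28), an interval that does not overlap that of Cd74. The excess did not hold throughout the class. Among mature B-like cells with only 1 more mature than immature stage marker (91 in WT and 32 in twi), the summed chains were lower in twi, at 0.775 (0.672 to 0.892). Set against Cd74 in the same cells, H2-Aa gave 10.95 UMIs per 100 Cd74 UMIs in WT (10.3 to 11.6) and 13.6 in twi (12.6 to 14.7).

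Among the accessory genes in mature B-like cells, H2-DMa, the α chain of the peptide exchanger, was at 380 CPM in WT and 487 CPM in twi (ratio 1.28, 1.01 to 1.61). Its β chains gave ratios of 1.05 (0.648 to 1.67) for H2-DMb1 and 0.960 (0.811 to 1.13) for H2-DMb2. The H2-O chains were at 177 and 204 CPM for H2-Oa (ratio 1.15, 0.802 to 1.64) and 306 and 395 CPM for H2-Ob (ratio 1.29, 0.995 to 1.67). Ciita had 24 UMIs in WT and 15 in twi (ratio 1.31, 0.640 to 2.61). H2-DMb2 was lower in twi and the other members were higher, with intervals that excluded 1 for H2-Aa, H2-Ab1 and H2-DMa only. The share of all genes for which the same holds is not given, so this only describes the members.

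Among the 4055 genes with at least 25 UMIs in mature B-like cells, 8.09% were at least 1.5-fold higher and 11.6% at least 1.5-fold lower in twi, and 0 of the 10 class II genes were past that limit in either direction. The median log2 ratio was 0.26 over the 10 genes and -0.010 over all genes tested. In the cells with Y-linked UMIs and no Xist, 99 WT and 20 twi mature B-like cells, the summed ratio was 0.965 (0.913 to 1.02). The excess of the sum in twi, 1.06 over all mature B-like cells, was thus not seen among these cells, of which twi had few. Cd74 gave most of the sum, and a ratio of the chains alone is not given for these cells.

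**Figure D3:**
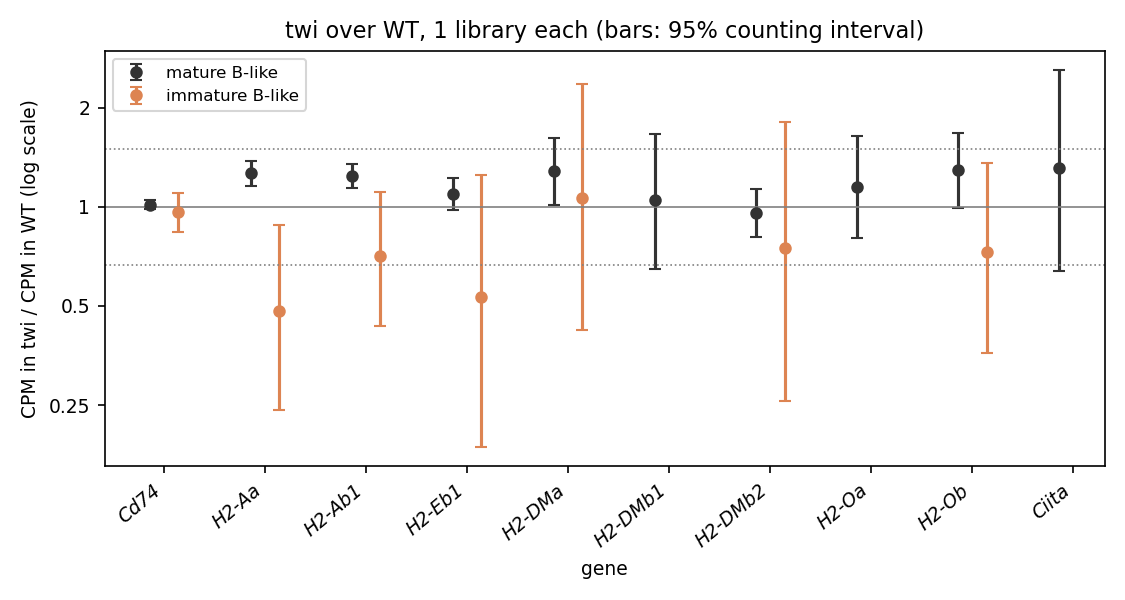
CPM in the twi library over CPM in the WT library for each class II gene with at least 25 UMIs in both libraries together, in mature B-like (black) and immature B-like (orange) cells, on a log scale. Bars are 95% counting intervals with 1 library a genotype, and dotted lines mark 1.5-fold. In mature B-like cells every ratio lay between 0.960 and 1.31, and in immature B-like cells H2-Aa (0.482) and H2-Eb1 (0.532) lay past the lower line.

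The largest difference in class II level within the B lineage was between stages. Immature B-like cells were placed by genes of the stages before the mature B cell, such as Rag1, Dntt and Cd93. They had 2561 CPM of the 10 genes in WT and 2251 CPM in twi. Mature B-like cells were thus 12.6-fold (11.96 to 13.3) higher in WT and 15.2-fold (13.7 to 17.1) higher in twi. The step was not alike for all genes. It was 12.7-fold for Cd74 in WT and 13.4-fold in twi, 14.9-fold and 39.2-fold for H2-Aa, 12.7-fold and 22.2-fold for H2-Ab1, and 23.8-fold and 48.9-fold for H2-Eb1. Its value was lower for H2-DMa (7.42-fold and 8.92-fold) and H2-DMb1 (7.65-fold and 8.48-fold) than for H2-DMb2 (15.9-fold and 20.4-fold), but the interval of H2-DMb1 reached from 3.76 to 17.6 in WT and overlapped that of H2-DMb2 (11.2 to 23.3).

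The H2-O chains had lower values. H2-Ob was 2.73-fold (2.05 to 3.67) higher in mature than in immature B-like cells in WT and 4.83-fold (2.64 to 9.66) higher in twi. H2-Oa was 5.52-fold (3.38 to 9.45) and 7.46-fold (2.74 to 28.4) higher, with intervals that overlapped those of H2-DMa and H2-DMb1. Relative to the invariant chain H2-Ob was higher in the immature class: H2-Ob gave 6.15 UMIs per 100 Cd74 UMIs (4.76 to 7.83) in WT immature and 1.32 (1.12 to 1.54) in WT mature B-like cells. In twi the values were 4.67 (2.38 to 8.30) and 1.68 (1.36 to 2.05). This was not particular to H2-Ob. In WT, H2-Oa gave 1.76 (1.07 to 2.73) in immature and 0.763 (0.615 to 0.935) in mature B-like cells, and H2-DMa 2.81 (1.91 to 3.99) and 1.64 (1.42 to 1.89). In twi the intervals of H2-Oa and of H2-DMa overlapped between the stages. Ciita had 24 UMIs in mature and 3 in immature B-like cells of WT, a ratio of 9.49 (2.88 to 49.2), and 15 and 0 in twi, where it was at least 2.93-fold higher, counting 3 UMIs for the 0.

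Along the number of mature minus immature stage markers seen in a B lineage-like cell, class II levels increased from one end to the other in both libraries. In WT, Cd74 went from 539 CPM in cells with at least 3 more immature than mature markers through 1244, 3696, 12592, 21176 and 22006 CPM to 26374 CPM at 3 or higher, and in twi from 28.5 CPM (2 UMIs in 13 cells) through 2099, 3922, 11777, 18307 and 25176 to 25849 CPM. Cd74 therefore had most of its increase up to a balance of 1. The 3 chains went on increasing above it, from 4773 CPM at 1 and 6144 CPM at 2 to 10604 CPM at 3 or higher in WT, and from 3701 and 7825 to 12608 CPM in twi.

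The twi to WT ratio of the 3 chains differed along this axis, also within the mature B-like class, which is the cells with a balance of 1 or higher. It was 0.491 (0.382 to 0.625) at a balance of 0, 0.775 (0.672 to 0.892) at 1, 1.27 (1.15 to 1.41) at 2 and 1.19 (1.11 to 1.28) at 3 or higher. For Cd74 the ratio was 0.935 (0.849 to 1.03), 0.865 (0.811 to 0.921), 1.14 (1.08 to 1.21) and 0.980 (0.935 to 1.03) at the same points. With more immature than mature markers the ratios were not steady. The chains were at 0.765 (0.516 to 1.11) with 1 more and 0.287 (0.0341 to 1.07) with 2 more. With at least 3 more they were at 0.211 (0.0552 to 0.580). Cd74 was at 1.06 (0.904 to 1.24), 1.69 (1.23 to 2.27) and 0.0529 (0.00630 to 0.197) in the same order. The chains had 35, 2 and 4 twi UMIs there. Mature B-like cells with a balance of 3 or higher were 31.0% (25.3 to 37.1%) of the class in WT and 39.3% (30.0 to 49.2%) in twi. Each point of twi rests on 12 to 42 cells.

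**Figure D4:**
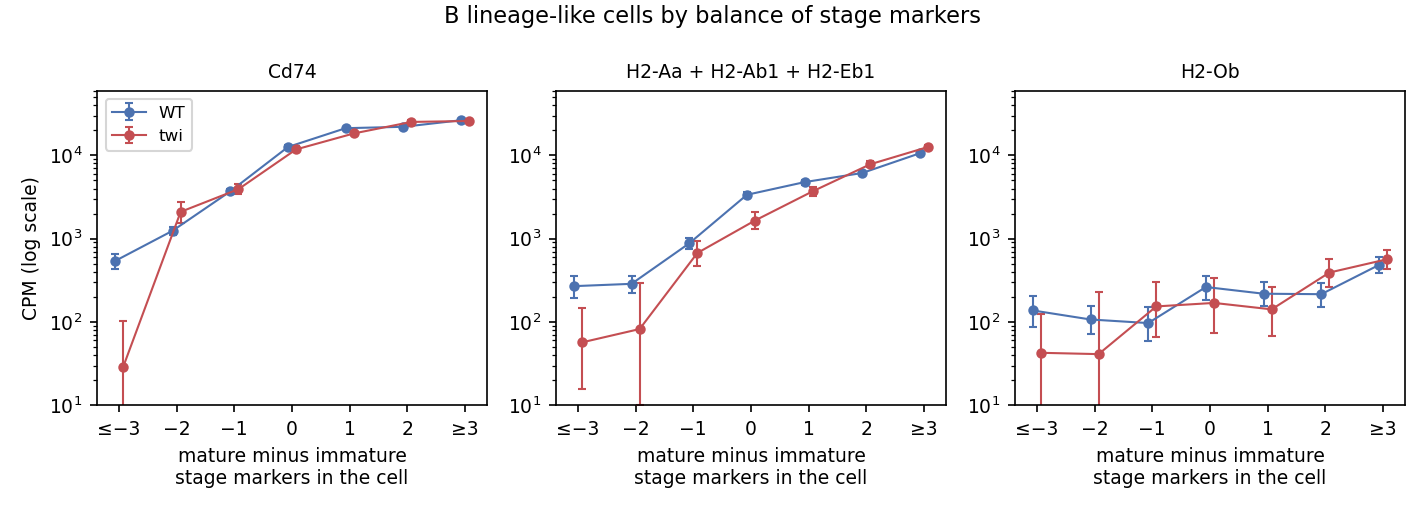
CPM on a log scale of Cd74, of the summed H2-Aa, H2-Ab1 and H2-Eb1 chains, and of H2-Ob in B lineage-like cells, by mature minus immature stage markers seen in the cell, for WT (blue) and twi (red). Bars are 95% counting intervals, cut at the lower edge of the plot. Between a balance of 1 and of 3 or higher Cd74 went from 21176 to 26374 CPM in WT, whereas the chains went from 4773 to 10604 CPM.

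Immature B-like cells of twi held less H2-Aa, with 12 UMIs (81.9 CPM) against 106 in WT (170 CPM), a ratio of 0.482 (0.241 to 0.878). H2-Eb1 was at 0.532 (0.186 to 1.25) and H2-Ab1 at 0.710 (0.435 to 1.11), while Cd74 was at 0.961 (0.836 to 1.10). Of the 7 class II genes with at least 25 UMIs, 0 were at least 1.5-fold higher (11.2% of 4422 genes) and 2, H2-Aa and H2-Eb1, at least 1.5-fold lower (17.7% of genes). Few cells carried these levels. The median immature B-like cell had 1 Cd74 UMI in WT and 0 in twi, but the highest had 90 and 85, and 6.81% of WT and 9.09% (4 of 44) of twi cells had at least 20. Without the single highest cell of each class the summed ratio in immature B-like cells went from 0.879 (0.779 to 0.9904) to 0.678 (0.588 to 0.779), and per cell, without scaling by depth, it was 1.10 (0.977 to 1.24). Among cells with Y-linked UMIs and no Xist (92 WT and 9 twi cells) it was 0.175 (0.103 to 0.279).

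H2-DMb1 and H2-DMb2 are neighbouring, closely related genes, so some reads may be split between them with uncertainty. In mature B-like cells H2-DMb2 made up 88.7% (85.7 to 91.3%, 457 of 515 UMIs of the pair) in WT and 87.8% (83.0 to 91.7%, 209 of 238) in twi. In monocyte-like, microglia-like and dendritic-like cells pooled it made up 23.4% (12.3 to 38.0%, 11 of 47) in WT and 16.1% (7.62 to 28.3%, 9 of 56) in twi. Mature B-like cells thus carried mainly H2-DMb2 and the pooled myeloid and dendritic classes mainly H2-DMb1, in both libraries and with intervals far apart. In the WT pool 1 monocyte-like cell gave 15 of the 36 H2-DMb1 and 5 of the 11 H2-DMb2 UMIs. In the twi pool 3 conventional dendritic-like cells gave 12 of the 47 H2-DMb1 and 4 of the 9 H2-DMb2 UMIs. The intervals do not allow for such weight of few cells. Some single classes had few UMIs of the pair, such as 4 in WT microglia-like cells. The promoter stretches of the pair, printed above, come from promoters identical at 83.3% of 258 aligned bases.

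In monocyte-like, microglia-like and dendritic-like cells the classical chains were confined to few cells. Of 68 such cells in WT, 1 had at least 10 UMIs of H2-Aa, H2-Ab1 and H2-Eb1 (1.47%, 0.0372 to 7.92%), and of 86 in twi 7 had (8.14%, 3.34 to 16.1%), intervals that overlap. The limit of 10 was set after the values had been seen. The highest of the other cells had 2 chain UMIs in WT and 1 in twi, so that the high cells stood clear of the rest. They held 95.9% of the 193 chain UMIs of these classes in WT and 98.4% of 512 in twi.

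The WT cell was monocyte-like, with 82 H2-Aa, 56 H2-Ab1, 47 H2-Eb1 and 228 Cd74 UMIs. It had 7 monocyte markers, 2 conventional dendritic markers and 0 B markers. In twi the high cells were 1 conventional dendritic-like cell (183 chain UMIs, 259 Cd74 UMIs), 2 monocyte-like cells (115 and 15 chain UMIs), 2 microglia-like cells (100 and 48) and 2 plasmacytoid dendritic-like cells (33 and 10). The microglia-like cell with 100 chain UMIs, which held 276 of the 460 class II UMIs of its class, had 4 microglia and 4 monocyte markers, and the plasmacytoid dendritic-like cell with 33 had 4 plasmacytoid and 4 conventional dendritic markers, so both were placed by marker UMIs after a tie. Each carried 0 or 1 of the 8 B lineage markers, and the last of them was placed by 2 plasmacytoid markers only. Of the 7 twi cells, only the conventional dendritic-like cell had Ciita UMIs, 3 in number.

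**Figure D5:**
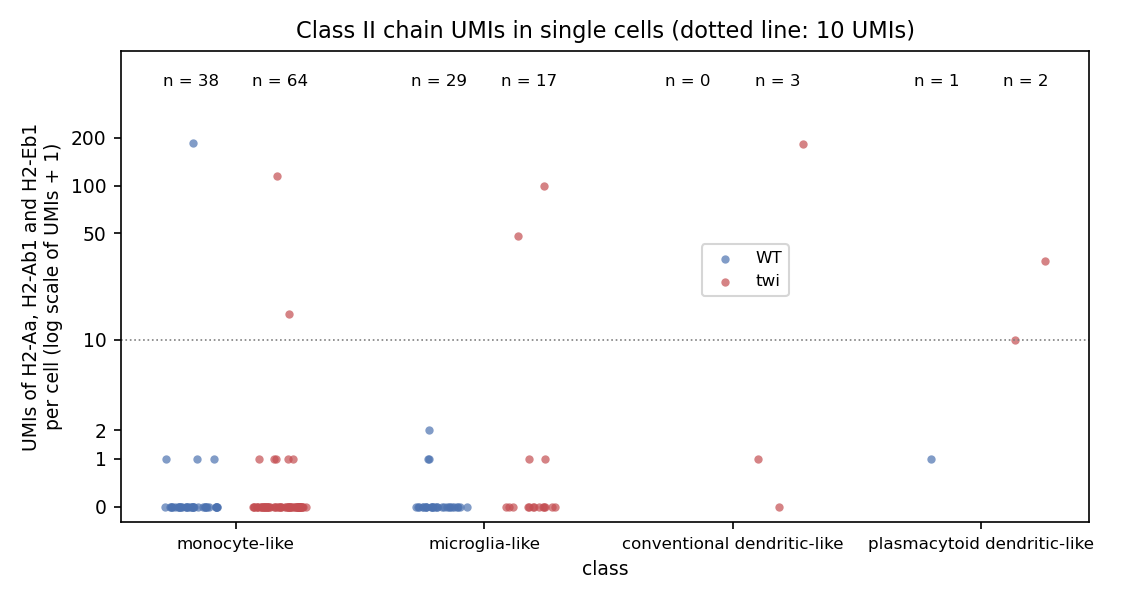
UMIs of H2-Aa, H2-Ab1 and H2-Eb1 in each monocyte-like, microglia-like and dendritic-like cell, on a log scale of UMIs + 1, for WT (blue) and twi (red). 1 of 68 WT cells and 7 of 86 twi cells lay at or above 10 UMIs (dotted line), and the other cells had at most 2.

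These cells set the class averages. In monocyte-like cells the 10 genes summed to 2148 CPM in WT and 1173 CPM in twi, a ratio of 0.546 (0.479 to 0.622), which became 426 and 410.0 CPM, a ratio of 0.961 (0.741 to 1.25), without the high cells. In microglia-like cells the sums were 584 and 4474 CPM, a ratio of 7.66 (5.79 to 10.3), which became 584 and 716 CPM, a ratio of 1.23 (0.849 to 1.78). Of the 6 class II genes with at least 25 UMIs in monocyte-like cells, 0 were at least 1.5-fold higher (11.6% of 3191 genes) and 5 (Cd74, H2-Aa, H2-Ab1, H2-Eb1 and H2-DMb1) at least 1.5-fold lower in twi (13.7% of genes), a count that includes the high cells. In microglia-like cells 4 of 5 (Cd74, H2-Aa, H2-Ab1 and H2-Eb1) were higher (25.9% of 1223 genes) and 0 lower (22.2% of genes), again with the high cells included. With cells that showed 2 or more markers of a second class set aside, the monocyte-like ratio was 2.64 (1.68 to 4.38). That setting takes out the WT high cell, which had 2 conventional dendritic markers and held 442 of the 546 class II UMIs of its class. Among cells with Y-linked UMIs and no Xist the ratios were 0.117 (0.0830 to 0.161) in monocyte-like and 1.07 (0.582 to 1.91) in microglia-like cells.

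H2-DMa did not follow the chains in these classes. Leaving out the high cells, it was seen in 21 of 37 WT and 33 of 62 twi monocyte-like cells, and in 14 of 29 WT and 10 of 15 twi microglia-like cells. Over all monocyte-like cells it stood at 189 CPM in WT and 191 CPM in twi, a ratio of 1.01 (0.689 to 1.499). In mature B-like cells it was 2.01-fold (1.46 to 2.82) higher than in monocyte-like cells in WT and 2.55-fold (1.88 to 3.48) higher in twi. The steps of Cd74 were 21.9-fold and 43.4-fold. All these steps include the high cells, and values without them are not given. Of the monocyte-like Cd74 UMIs, 1 high cell held 228 of 269 in WT, and 2 held 103 and 28 of 190 in twi. H2-DMa overlaps Brd2 on the opposite strand, whose level was 169 CPM in WT mature B-like and 98.4 CPM in WT monocyte-like cells. In T-like cells Brd2 was at 140 CPM in WT and 110 CPM in twi, above H2-DMa there at 39.4 and 21.8 CPM. The part of Brd2 reads in the H2-DMa counts was not tested.

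Mouse T cells are not known to make class II molecules, so the level in T-like cells served as the measured background. H2-DMa and H2-Oa held 68 and 63 of the 325 twi UMIs there, above their mature B-like proportion to Cd74 (given below). H2-Ob was above its proportion too, at 20 UMIs per 100 Cd74 UMIs (10.1 to 36.6) against 1.32 in WT and 8.70 (4.06 to 16.6) against 1.68 in twi. Ciita, with 7 UMIs in twi T-like cells, gave 6.09 (2.39 to 12.9) against 0.255, and had 0 UMIs in those of WT. The summed level therefore need not be background for every gene. For H2-DMa the part of reads from Brd2, described above, was not tested in T-like cells either. The 10 genes summed to 189 CPM in WT T-like cells and 104 CPM in twi, 170.3-fold (146 to 199.4) and 329-fold (294 to 368) below mature B-like cells. Cd74 was seen in 52 of 260 WT T-like cells (median 3073 UMIs) and 14.1% of twi T-like cells (median 3642 UMIs), against 98.8% and 98.1% of mature B-like cells (medians of 2060 and 2213 UMIs). With every cell thinned to 1000 UMIs, the shares were 9.64% and 4.54% in T-like and 98.3% and 97.2% in mature B-like cells. In WT microglia-like cells 27.6% (12.7 to 47.2%) had a Cd74 UMI, a share whose interval overlapped that of T-like cells (15.3 to 25.4%). Their level was higher than in T-like cells, 3.08-fold (2.23 to 4.20) for the 10 genes, 2.03-fold (1.05 to 3.65) for Cd74 and 6.19-fold (3.49 to 10.8) for H2-DMa, while the 3 chains were at 1.11-fold (0.286 to 3.11). Of the 14 Cd74 UMIs of the WT microglia-like cells, 1 cell held 7, and the ratio without it is not given. Of the T-like cells, 7.69% in WT and 2.30% in twi also had 2 or more B lineage markers, as did 13.8% of WT microglia-like cells.

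The T-like level was lower in twi, with a summed ratio of 0.551 (0.456 to 0.668). B lineage-like cells were also fewer there, and their part in this was not tested. Of the 4 class II genes with at least 25 UMIs in T-like cells, 0 were at least 1.5-fold higher (15.3% of 8245 genes) and 3 (Cd74, H2-Ab1 and H2-DMa) at least 1.5-fold lower (8.03% of genes). Relative to Cd74, H2-Aa gave 12.3 UMIs per 100 Cd74 UMIs in WT T-like cells (5.10 to 25.7) and 10.95 in mature B-like cells, while H2-Ab1 gave 32.3 (18.8 to 53.5) and 12.1. For H2-DMa the values were 53.8 (34.6 to 82.4) and 1.64, and for H2-Oa 30.8 (17.7 to 51.5) and 0.763, so that H2-Oa had 20 UMIs where the mature B-like proportion to Cd74 would give 0.496. In twi T-like cells H2-Oa gave 54.8 (39.6 to 75.1) and H2-DMa 59.1 (43.2 to 80.5). Such an excess was also seen outside T-like cells. In NK-like cells H2-Oa gave 7.89 (2.81 to 18.0) in WT and 17.5 (6.61 to 39.5) in twi. H2-DMa gave 13.2 (6.07 to 25.5) and 22.5 (9.60 to 47.1) there. WT neutrophil-like cells gave 6 (2.15 to 13.5) for H2-Oa and 21 (12.5 to 33.9) for H2-DMa, and those of twi had 1 and 2 UMIs. In CPM H2-Oa was at 19.0 and 17.0 in NK-like and 22.5 and 20.2 in T-like cells of WT and twi.

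Within T-like cells, H2-Oa was seen in 12.1% (6.63 to 19.9%, 13 of 107) of WT T-like cells with Cd8a or Cd8b1 UMIs and no Cd4, in 1 of 44 with Cd4 alone (2.27%, 0.0575 to 12.02%) and in 1.94% (0.236 to 6.84%) of those with neither. In twi the shares were 8.94% (6.41 to 12.1%, 38 of 425), 7.14% (2.36 to 15.9%, 5 of 70) and 2.62% (0.967 to 5.62%). The Cd8 group was the deepest, with median UMIs of 3706, 3220 and 2468 in WT and 4111, 3064.5 and 3078 in twi. In CPM it stood at 38.0 (22.1 to 60.8), 6.41 (0.162 to 35.7) and 7.55 (0.914 to 27.3) in WT, and at 23.2 (17.1 to 30.9), 20.7 (6.73 to 48.4) and 9.16 (3.68 to 18.9) in twi. The Cd8 group had the highest value in both libraries, but its CPM intervals overlapped those of both other groups. Cd74 showed no such order, at 55.8, 89.8 and 79.3 CPM in WT and 35.6, 58.0 and 35.3 CPM in twi.

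A fixed list of 25 other genes held regulators, genes of processing, turnover and costimulation, and H2-Ea-ps as a check of the strain. H2-Ea-ps was not in the gene table, so that check could not be made, and the other 24 were in it. In mature B-like cells 16 had at least 25 UMIs, of which 1 was at least 1.5-fold higher in twi (Nfya, a subunit of the CCAAT-binding factor, 1.54-fold, 0.640 to 3.59) and 1 lower (Cd40, a costimulatory receptor, 0.653, 0.411 to 1.01). Rfx5, Rfxap and Rfxank, the subunits of the factor that recruits Ciita, had 2 to 13 UMIs in either library and were not tested. Ctss, the protease that trims the invariant chain in B cells, was at 561 CPM in WT and 583 CPM in twi (1.04, 0.846 to 1.27), and Ifi30, the lysosomal thiol reductase, at 1016 and 735 CPM (0.723, 0.608 to 0.857). Irf8 and Spi1, lineage factors, were at 0.911 (0.736 to 1.12) and 0.765 (0.527 to 1.09). The shares of all genes past the limit in this class were 8.09% and 11.6%, as given above.

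Between stages, the genes of this list differed in their steps. In WT, Ifi30 was 6.96-fold (5.57 to 8.80) higher in mature than in immature B-like cells, Ctss 3.50-fold (2.78 to 4.44), Cd40 5.62-fold (3.399 to 9.77) and March1, a ligase that turns over surface class II, 5.27-fold (2.52 to 12.4). In twi the same steps were 6.73-fold, 7.12-fold, 5.46-fold and 7.61-fold. The other processing genes had lower values in WT, at 1.70-fold (1.15 to 2.54) for Lgmn, 1.27-fold (0.572 to 2.84) for Sppl2a and 1.19-fold (0.467 to 3.02) for Ctsl. Pax5, the B lineage factor, was at 1.05-fold (0.819 to 1.35) in WT and 1.08-fold in twi, and Nfyb, another subunit of the CCAAT-binding factor, at 0.576-fold (0.371 to 0.880) and 0.431-fold. Irf4 was lower in mature B-like cells, at 0.344-fold (0.158 to 0.686) in WT and 0.130-fold (0.0137 to 0.628) in twi.

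In the other classes the list gave 1 gene higher (Creb1) and 2 lower (Irf8 and Ctss) of 14 in immature B-like cells of twi, where 11.2% and 17.7% of all genes were past the limit. In monocyte-like cells 3 of 14 were higher: Lgmn, an endosomal protease, at 3.54-fold (2.05 to 6.49), Ctss at 1.68-fold (1.48 to 1.90) and Sppl2a, which cleaves the last fragment of Cd74, at 1.55-fold (0.799 to 3.17). Irf8 was lower there at 0.547 (0.409 to 0.730), against shares of 11.6% and 13.7% over all genes. In T-like cells 3 of 16 were higher and 1 lower, against 15.3% and 8.03% of all genes. The higher were Irf1 at 1.69-fold (1.28 to 2.28), Prdm1 at 2.64-fold (0.947 to 10.2) and Cd86 at 3.53-fold (1.44 to 11.3). Prdm1 and Cd86 had 4 and 5 UMIs in WT. The lower was Nfyb at 0.656 (0.471 to 0.923). In microglia-like cells 1 of 8 was higher, Ifi30 at 4.76-fold (2.72 to 8.92), and 1 lower, Spi1 at 0.652 (0.416 to 1.01), against 25.9% and 22.2%.

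The genes whose pattern was most like that of the summed members, outside the members and the marker lists, were Cd40, Bcl11a, Swap70, Tsc22d3 and Tnfrsf13b. Their correlation with the sum on log2(CPM + 10) was 0.952, 0.950, 0.949, 0.947 and 0.945 over 15 points, each a class with at least 20 cells in 1 library, among 7126 genes. The points share their library and several share the B lineage, so these values only describe the table. The members themselves ranged from 0.743 for Ciita and 0.795 for H2-Oa to 0.994 for Cd74. Each member is part of the sum, and Cd74 is most of it, so these values cannot be compared with those of the other genes. Bcl11a, for example, was at 321 CPM in WT and 256 CPM in twi mature B-like cells and at 1.13 and 0.642 CPM in T-like cells.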

How the data were processed

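The authors deposited, for each library, UMI counts per gene and barcode from droplet 3′ sequencing of sorted CD45+ brain cells, aligned with STAR and filtered on mapping quality, with barcodes kept by an adaptive UMI threshold. The submitters' processing notes name Cell Ranger 2.1.1 and mm10. The members and lists were chosen with earlier results of these data known. Barcodes with at most 15% mitochondrial UMIs were kept and placed in the class with the most distinct markers seen out of fixed lists of 8, at least 2, with ties settled by marker UMIs. B lineage-like cells were split by which stage list had more markers. Ighd, Trac, Trbc1 and Trbc2 are not in the gene list used here, so 5 T and 7 mature-stage markers counted. No doublet caller was run, and an alternative left unplaced the cells with 2 or more markers of a second class. With 1 library a genotype no test was made. Poisson, Clopper-Pearson and exact conditional intervals at 95% cover counting error only, and where no UMI was seen 3 UMIs were taken as the limit. Ratios past 1.5-fold were counted over genes with at least 25 UMIs in both libraries together. All 10 members were named, with a fixed pathway list and the 5 genes of most similar pattern (at least 100 UMIs, log2(CPM + 10), classes of at least 20 cells). Whether counting used strand is not given in the sources used here. Scripts were tested on simulated data (Python 3.11.15, numpy 2.4.6, scipy 1.17.1, matplotlib 3.10.9, gene positions from GENCODE M21).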

Additional observations from a re-analysis of the deposited data

How the results depend on the processing

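Of 106 values recomputed under other settings, 57 moved by less than the counting interval, 44 moved by more and 5 turned direction. No paired analysis was possible because each genotype had 1 library. The settings without single cells were chosen after seeing the data. Over all cells the ratio of 0.411 became 0.555 per cell, 0.454 as a mean over cells, 0.466 thinned to 1000 UMIs, 0.434 in cells with Y-linked UMIs and no Xist, 0.373 without the highest cell of each class and 0.375 without the high-chain myeloid and dendritic cells. In mature B-like cells 1.06 became 1.19 per cell and turned to 0.965 in the Y-linked cells. In immature B-like cells 0.879 turned to 1.10 per cell and 1.07 thinned, and became 0.175 in the Y-linked cells and 0.678 without the highest cell. In monocyte-like cells 0.546 turned to 2.64 without cells of a second class and 1.26 without the highest cell. Both settings leave out the WT cell that held 442 of the 546 class II UMIs of its class. The ratio became 0.447 per cell, 0.971 as a mean over cells, 0.868 thinned, 0.117 in the Y-linked cells and 0.961 without the high-chain cells. In microglia-like cells 7.66 became, in the same order of settings, 18.5, 3.67, 14.3, 14.97, 11.1, 1.07 and 1.23. In T-like cells 0.551 became 0.682 per cell. The mature over immature ratio of 12.6 in WT became 11.5 without cells of a second class, 9.89 per cell, 9.42 as a mean over cells, 9.83 thinned, 13.3 in the Y-linked cells and 13.5 without the highest cell, and that of 15.2 in twi became 12.6, 10.7, 11.03, 9.96, 73.1 and 21.3. In the setting without cells of a second class, these cells were left unplaced, with their UMIs still in the library total. There the percent of class II UMIs in mature B-like cells went from 76.6 to 59.1 in WT and from 73.7 to 66.4 in twi. From the same starting values it went to 78.9 and 81.3 thinned and 78.1 and 81.3 in the Y-linked cells. Without the highest cell it was 79.6 and 83.0, and without the high-chain cells 78.2 and 83.0. The causes were not tested. The number of class II genes past the fold in mature B-like cells was 0 at 1.5-fold, at 2-fold and with at least 10 UMIs. Depth limits Ciita most, with 29 UMIs in each library.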
